A study of Mus musculus with 6 samples.

Results

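The genes described here are 40 genes of the cell cycle and of DNA replication, chosen by name, and all 40 were found among the 53797 genes of the deposited table. They were divided by role into 20 G2/M genes, which act in mitosis, and 20 G1/S genes. Of the G1/S genes, 16 serve DNA replication or, as Ccne1, Ccne2 and E2f1, the entry into S phase, and 4 control the G1 phase. The 16 are called replication genes below. RNA of MLO-Y4 cells, a mouse cell line with features of osteocytes, was sequenced from 3 cultures treated with low-intensity pulsed ultrasound (LIPUS) and from 3 untreated Control cultures. The treated cells received 20 min of stimulation at 1.5 MHz and 30 mW/cm2, and the methods place the RNA extraction 30 min after its end. Both groups were kept in α-MEM with 10% fetal bovine serum, and the methods describe treated and untreated wells in a shared plate with 6 wells, in which only 3 of the transducers were plugged in. The study's results describe 3 independent repeats with 3 independent RNA samples, while its statistics section excepts the RNA-seq from the repeated experiments. All cultures were of a single line, which was derived from a mouse carrying the SV40 large T antigen, a protein that binds the retinoblastoma family, under the osteocalcin promoter. The table gives 1 FPKM (fragments per kilobase of exon, scaled to the number of mapped reads) for each group, pooled by the authors over the cultures of that group. It holds no value of a single culture, so no spread between cultures can be given, and no difference below was tested. The study describes a Control culture that stood apart from the rest of its group and mentions no removal of it, so the pooled Control FPKM are taken to include it, and no ratio below can be given without it. For the variation among the Control cultures the study proposes a possible leakage of LIPUS into untreated wells, which was not tested here. Each ratio is a description of these pooled values, and the depth of each library cannot be read from them. For depth, the methods give only a common read number per sample.

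Cells that divide pass from G1 into S phase, in which the DNA is copied, and through G2 into mitosis. The D cyclins with their kinases inactivate the retinoblastoma proteins, which releases the E2F factors to switch on the genes of replication, and the mitotic genes follow later under the DREAM, MuvB, B-Myb and FoxM1 factors. Osteocytes in bone are embedded, non-dividing cells, whereas MLO-Y4 cells proliferate in culture. In bulk RNA, a smaller share of cycling cells and less RNA of these genes in each cell cannot be told apart.

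Genes were compared by the log2 ratio of (FPKM + 1) in LIPUS over Control, in which a positive value is higher with LIPUS, among the 11536 genes with a mean of the group FPKM of at least 1. All 40 cell cycle genes passed this minimum. The marker genes fitted the labelled cell line in part. Podoplanin (Pdpn), an early osteocyte marker, was at 402 FPKM with LIPUS and 295 in Control, connexin 43 (Gja1) at 170 and 176 FPKM, and Dmp1 at 7.65 and 3.04 FPKM. The markers of mature osteocytes Sost, Mepe and Fgf23 were listed at 0 in both groups. Phex was at 0.190 FPKM with LIPUS and Bglap at 1.58, and both were listed at 0 in Control. The osteoblast-lineage genes Spp1 (4158 and 4514 FPKM), Col1a1 (731 and 891), Alpl (190 and 293) and Runx2 (14.8 and 24.4) were listed in both groups, in the order LIPUS and Control. Of the immune markers reported here, Ptprc, Adgre1, Cd3e and Itgam were listed at 0 in both groups and Cd68 was at 1.72 and 5.32 FPKM, and of the 6 epithelial and endothelial markers, Epcam, Krt8, Cdh5 and Kdr were listed at 0, Krt18 was at 0.514 and 0.201 and Pecam1 at 0 and 0.496 FPKM. The median log2 ratio of all 11536 genes was -0.0017, and 10 reference genes had a median of 0.044. Their ratios ranged from -0.16 (Polr2a) to 0.31 (Tbp), so that 1 of the 10, Tbp, was itself at least 1.2-fold higher and above the ratio of E2f1 given below.

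The cell cycle genes were abundant in both groups. By mean FPKM, 27 of the 40 lay above at least 75% of the 11536 genes, and 8 exceeded 100 FPKM in both groups. Their summed FPKM was 0.480% of the total with LIPUS and 0.473% in Control. The most abundant was Rrm2, the small subunit of ribonucleotide reductase, at 366 FPKM with LIPUS and 372 in Control. Cdk1, the kinase that drives entry into mitosis, followed at 260.3 FPKM with LIPUS and 243 in Control. Pcna, the sliding clamp of the DNA polymerases, was at 203 and 188 FPKM. At the lower end stood Cdkn1b, which encodes the Cdk inhibitor p27, at 7.86 FPKM with LIPUS and 8.07 in Control. The order of the levels was nearly the same in both groups, as 31 of the 40 genes moved by at most 2 ranks and none by more than 5. Across the 40 genes, which share their libraries and are not independent, the log2 FPKM of the groups had a Pearson's r of 0.989 and a Spearman's rho of 0.980.

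**Figure D1:**
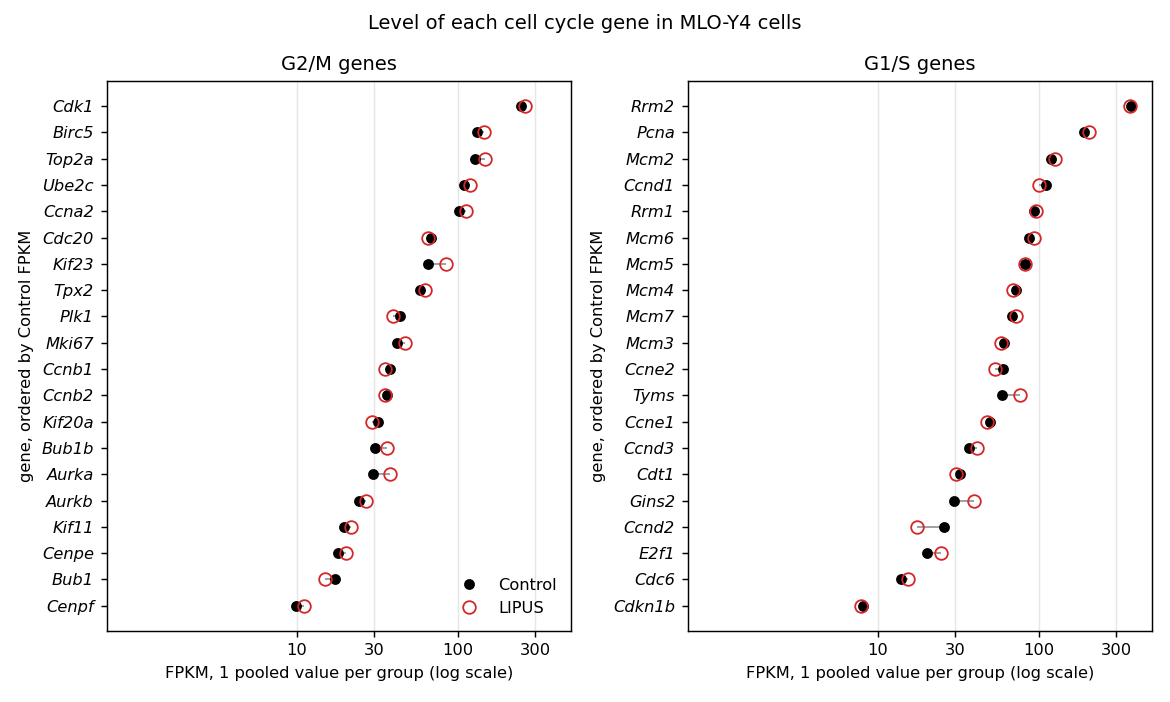
FPKM of the 20 G2/M genes (left) and the 20 G1/S genes (right) on a log axis, with the single pooled value of Control (black) and of LIPUS (red circle) joined by a line. The values of most genes nearly coincide, and the widest gap is that of Ccnd2, at 17.5 FPKM with LIPUS and 25.7 in Control.

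With LIPUS, 5 of the 40 genes were at least 1.2-fold higher and 1 was at least 1.2-fold lower. Among all 11536 genes, 18.5% were at least 1.2-fold higher and 19.4% at least 1.2-fold lower. Either way, 15% of the cell cycle genes differed by this fold, against 37.9% of all genes and against 30.9% of the 7120 genes whose mean FPKM lay within the range of the cell cycle genes. The share of cell cycle genes past this fold was thus below the background in total, and nothing particular to them can be read from the 6 genes. The genes at least 1.2-fold higher were Gins2, Tyms, Kif23, Aurka and E2f1, and the gene at least 1.2-fold lower was Ccnd2. Nearest to the limit were E2f1, 1.21-fold higher, and Bub1b, 1.18-fold higher and so not counted. Of the 40 genes, 23 differed by less than 1.1-fold, and none reached 1.5-fold.

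The G2/M genes had a median log2 ratio of 0.13, with 14 of 20 above 0 and a range from -0.19 (Bub1) to 0.36 (Kif23). The G1/S genes had a median of 0.012, with 10 of 20 above 0 and a range from -0.53 (Ccnd2) to 0.40 (Gins2). Rescaling the FPKM of each group to the same total lowered the ratios of all genes nearly alike and moved the median of all genes from -0.0017 to -0.045. After the rescaling, the median of the G2/M genes was 0.083 and that of the G1/S genes -0.033, so that the sign of the G1/S median depends on the scale. Within the G1/S genes, the 16 replication genes had a median of 0.055 and the 4 genes of G1 control one of -0.089. Of all genes, 49.8% lay above 0. Summed over the genes, the G2/M genes came to 1346 FPKM with LIPUS and 1243 in Control, which is 8.28% more, and the G1/S genes to 1614 and 1585 FPKM, or 1.86% more. The sum over all 11536 genes was itself 3.23% larger with LIPUS. The difference between the G2/M and the G1/S genes was not tested, since genes are not replicates.

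**Figure D2:**
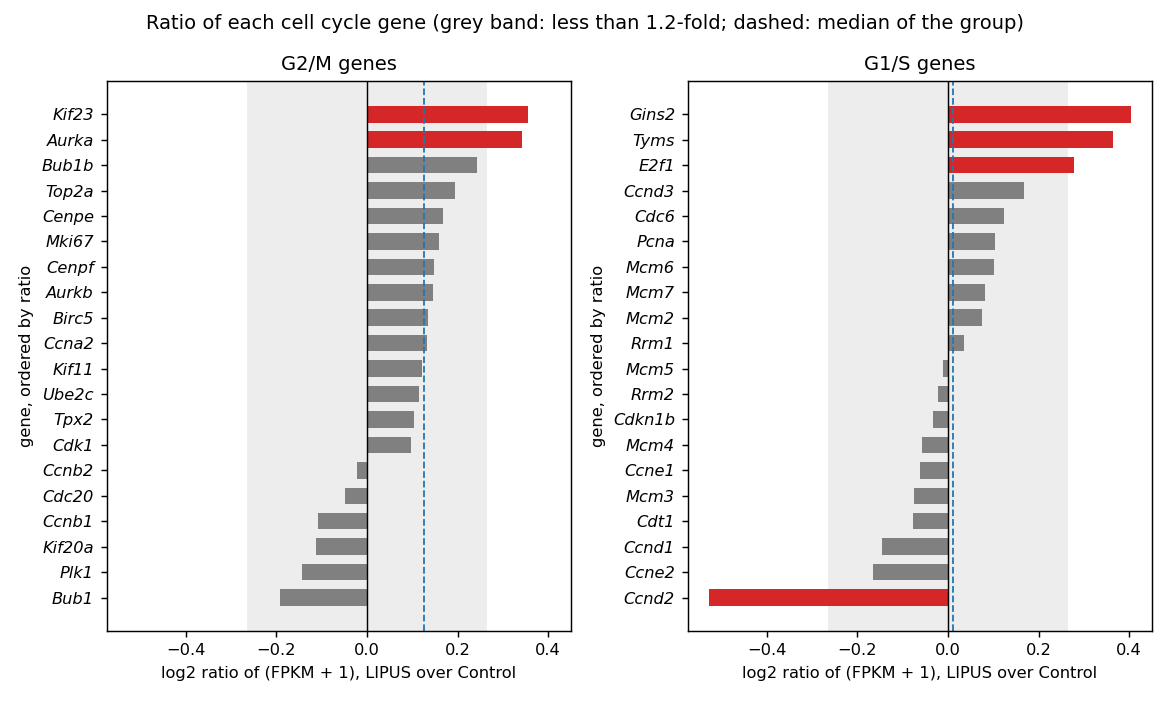
Log2 ratio of (FPKM + 1), LIPUS over Control, of each G2/M gene (left) and G1/S gene (right), with red bars for a ratio of at least 1.2-fold, a grey band for smaller ratios and a dashed line at the median of the group (0.13 and 0.012). Bars leave the band for Kif23 and Aurka on the left and for Gins2, Tyms, E2f1 and Ccnd2 on the right.

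The promoters were examined for letters that the regulators of these phases are known to bind. Promoters from 250 bases before to 50 bases after the start site were taken from RefSeq (GRCm38.p6) and were found for 31 of the 40 genes, but not for Aurkb, Ccna2, Ccnd1, Ccnd2, Ccne2, Gins2, Kif20a, Mcm4 and Tpx2. The start sites are those of RefSeq, and for Cdc6, E2f1, both promoters of Mcm7 and a promoter of Ccnd3 the window lies wholly inside the gene as GENCODE M21 bounds it, so the region before the outermost start was not searched in Cdc6, E2f1 and Mcm7. Both strands were searched for the CHR letters TTTGAA, which the MuvB complex is known to bind, for the E2F letters TTTCGCGC or TTTGGCGC, and for the letters CCAAT, which NF-Y is known to bind. Overlapping matches were each counted, and a site that differs from these letters by a base was not. Mcm7 and Ccnd3 have a pair of promoters each, so that the 14 promoters of replication genes belong to 13 genes and the 3 of G1 control to Ccnd3 and Cdkn1b. The CHR letters were present in 12 of 16 G2/M promoters (75%), in 1 of 14 promoters of replication genes (7.14%), in 0 of 3 of G1 control and in 17.9% of all 32851 promoters. In 11 of the G2/M genes a CHR match began within 50 bases of the start site, and 13 of their 16 matches read TTTGAA on the strand of the gene. The E2F letters were present in 5 of 14 promoters of replication genes (35.7%), those of Cdt1, Mcm3, Mcm5, Mcm6 and Mcm7, in 1 of 16 G2/M promoters (6.25%), that of Cdk1, in 0 of 3 of G1 control and in 0.813% of all promoters. The CCAAT letters were present in 15 of 16 G2/M promoters (93.8%), in 9 of 14 of the replication genes (64.3%), in 2 of 3 of G1 control and in 37.4% of all promoters. Among the promoters of genes with a mean FPKM of at least 1, the shares were 11.9% for CHR, 1.56% for E2F and 38.0% for CCAAT. A match is a description of the letters and not evidence of a bound site.

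The promoters of 6 genes are shown from 140 bases before to 20 bases after the start site, each 5′ to 3′ along its gene in GRCm38.p6, with the matched letters in capitals. Kif23, Cdk1, Ccnb2 and Cdc20 show the CHR letters beside CCAAT or its complement ATTGG, Mcm6 shows 3 E2F matches, of which 2 overlap on opposite strands, and Mcm2 is the replication gene that holds the CHR letters.
Kif23, chr9:61946780-61946939, strand minus: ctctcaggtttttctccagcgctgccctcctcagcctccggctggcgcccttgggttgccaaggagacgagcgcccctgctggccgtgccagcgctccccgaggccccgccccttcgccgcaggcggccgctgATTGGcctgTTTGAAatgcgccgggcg
Cdk1, chr10:69352893-69353052, strand minus: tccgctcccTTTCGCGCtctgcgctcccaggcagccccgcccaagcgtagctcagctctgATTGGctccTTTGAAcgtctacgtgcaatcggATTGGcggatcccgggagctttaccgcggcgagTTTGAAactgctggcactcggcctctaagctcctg
Ccnb2, chr9:70421535-70421694, strand minus: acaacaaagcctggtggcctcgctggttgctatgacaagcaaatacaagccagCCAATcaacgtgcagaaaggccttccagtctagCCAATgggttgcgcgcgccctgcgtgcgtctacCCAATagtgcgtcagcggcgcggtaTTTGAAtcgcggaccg
Cdc20, chr4:118437324-118437483, strand minus: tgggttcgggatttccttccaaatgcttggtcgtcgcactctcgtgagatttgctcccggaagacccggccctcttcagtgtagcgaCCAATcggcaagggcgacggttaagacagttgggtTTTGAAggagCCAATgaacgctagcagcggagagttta
Mcm6, chr1:128359686-128359845, strand minus: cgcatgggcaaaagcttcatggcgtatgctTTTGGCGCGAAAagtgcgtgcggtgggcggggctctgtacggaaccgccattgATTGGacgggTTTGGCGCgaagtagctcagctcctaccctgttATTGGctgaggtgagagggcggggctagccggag
Mcm2, chr6:88898761-88898920, strand minus: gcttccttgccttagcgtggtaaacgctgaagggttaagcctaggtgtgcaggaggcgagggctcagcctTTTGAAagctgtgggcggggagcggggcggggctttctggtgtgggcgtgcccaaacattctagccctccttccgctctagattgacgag

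The ratios of genes with and without the letters are given as a description, with no test. The 12 G2/M genes with the CHR letters had a median log2 ratio of 0.13 (from -0.14 to 0.36), and the 4 without them, Birc5, Bub1, Ccnb1 and Cenpe, one of 0.014 (from -0.19 to 0.17). For the CCAAT letters, the median was 0.12 over the 15 G2/M genes with them and the ratio of Birc5, the gene without them, was 0.13. For the E2F letters, the median was -0.010 over the 5 replication genes with them (from -0.078 to 0.10) and 0.090 over the 8 without them (from -0.061 to 0.36). This grouping is uncertain, because the windows of Cdc6, E2f1 and Mcm7 lie inside the gene.

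Among the cyclins and kinases of mitosis, the differences were small. Cdk1 had a log2 ratio of 0.097. Its partner Ccna2 (cyclin A2) was at 111 FPKM with LIPUS and 102 in Control (log2 ratio 0.13). The B cyclins lay the other way, Ccnb1 at 35.0 FPKM with LIPUS and 37.8 in Control (-0.11) and Ccnb2 at 35.4 and 36.0 FPKM (-0.022). Plk1, the Polo-like kinase of mitotic entry and spindle assembly, was at 39.5 FPKM with LIPUS and 43.7 in Control (-0.14). The Aurora kinases were both higher. Aurka, the kinase of the centrosomes and spindle poles, was at 37.6 FPKM with LIPUS and 29.5 in Control (log2 ratio 0.34), and 86.4% of all genes had a lower ratio. Tpx2, which activates Aurora A on the spindle, was at 62.0 and 57.6 FPKM (0.10). Aurkb, the kinase of the chromosomal passenger complex, was at 27.0 and 24.3 FPKM (0.15), and Birc5 (survivin), another subunit of this complex, at 144 and 131 FPKM (0.13).

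The genes of the spindle checkpoint and of the anaphase-promoting complex differed in both directions. Bub1, a checkpoint kinase of the kinetochore, was at 14.9 FPKM with LIPUS and 17.1 in Control (log2 ratio -0.19). Bub1b (BubR1), a component of the mitotic checkpoint complex, was at 36.2 and 30.5 FPKM (0.24). Cdc20, the activator of the anaphase-promoting complex, was at 65.0 and 67.3 FPKM (-0.049), and Ube2c, the ubiquitin-conjugating enzyme of the same complex, at 118 and 109 FPKM (0.11). No gene of these 4 reached 1.2-fold. Shared exonic bases were searched only with genes that passed the minimum mean FPKM of 1. Of the 40 genes, 8 share exonic bases with such a gene, in each case on the other strand. Over 10% of the bases are shared in 5, which are Ccna2 (12.5%, with Exosc9), Ccne2 (17.4%, with Ints8), Ccnd1 (23.4%, with LTO1), and Kif20a and Gins2, described with their values. Smaller shares were found for Mcm7 (7.25% with Ap4m1 and 1.45% with Cops6), Ccnd3 (4.11%, with Bysl) and Cdc20 (2.84%, with Elovl1). Pseudogenes named after Ccnb1, Ccnb2, Pcna, Tyms and Ccnd3 reached at most 0.559 FPKM.

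Kif23, the kinesin of the centralspindlin complex in cytokinesis, had the highest ratio of the G2/M genes, at 83.8 FPKM with LIPUS and 65.2 in Control (log2 ratio 0.36). Kif11, the motor that separates the spindle poles, was at 21.5 and 19.7 FPKM (0.12). Kif20a, a kinesin of the central spindle, was at 29.2 and 31.6 FPKM (-0.11). Of its annotated exonic bases, 29.3% are shared with Cdc23 on the other strand, which was at 17.5 and 13.3 FPKM. Cenpe, a kinesin of the kinetochore, was at 20.2 FPKM with LIPUS and 17.9 in Control (0.17), and Cenpf, a large protein of the kinetochore, at 11.0 and 9.87 FPKM (0.15). Top2a, the topoisomerase that untangles sister chromatids, was at 147 FPKM with LIPUS and 128 in Control (0.19). Mki67, which encodes the proliferation marker Ki-67, was at 46.9 and 42.0 FPKM (0.16). Both stayed under 1.2-fold.

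In the G1/S group, the 6 subunits of the MCM helicase, which is loaded at origins and opens the DNA, were all within 1.2-fold. Their log2 ratios ranged from -0.075 to 0.10 with a median of 0.032, and 3 were above 0. Mcm2 was at 124 FPKM with LIPUS and 118 in Control, Mcm6 at 93.2 and 86.8 FPKM, and Mcm7 at 71.6 and 67.6 FPKM. Slightly lower values with LIPUS were listed for Mcm5, at 81.1 and 81.7 FPKM, for Mcm4, at 68.5 and 71.3 FPKM, and for Mcm3, at 57.8 and 60.9 FPKM. The rescaling of both groups to the same total left 9 of the 20 G1/S genes above 0 in place of 10, and the gene that changed its sign was Rrm1 and no MCM subunit.

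Of the factors that load and start the helicase, Cdc6 was at 15.3 FPKM with LIPUS and 14.0 in Control (log2 ratio 0.12), and its partner in loading, Cdt1, at 30.4 and 32.2 FPKM (-0.078). Gins2, a subunit of the GINS complex of the active helicase, had the highest ratio of all 40 genes, at 39.4 FPKM with LIPUS and 29.5 in Control (0.40), and 89.4% of all genes had a lower ratio. Of its annotated exonic bases, 67.3% are shared with Gse1 on the other strand, which was at 5.81 FPKM with LIPUS and 9.14 in Control (-0.57). The libraries were stranded, but whether the FPKM used the strand is not given in the sources used here, so the value of Gins2 is uncertain. Pcna had a log2 ratio of 0.10.

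The enzymes of nucleotide supply were unlike each other. Tyms, the thymidylate synthase, was at 76.1 FPKM with LIPUS and 58.9 in Control (log2 ratio 0.36). The subunits of ribonucleotide reductase were nearly level, Rrm1 at 95.7 and 93.4 FPKM (0.035) and Rrm2 with a log2 ratio of -0.022. The E cyclins, which drive entry into S phase, were slightly lower with LIPUS, Ccne1 at 47.5 and 49.6 FPKM (-0.061) and Ccne2 at 53.1 and 59.6 FPKM (-0.16). E2f1, an activating E2F factor, was at 24.7 FPKM with LIPUS and 20.2 in Control (0.28). This ratio of E2f1 fell under 1.2-fold with a pseudocount of 5 (0.24) and after the rescaling (0.24).

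The genes that link mitogen signals to G1 held the lowest ratio. Ccnd2 (cyclin D2) was at 17.5 FPKM with LIPUS and 25.7 in Control, 1.44-fold lower (log2 ratio -0.53), and 7.30% of all genes had a lower ratio. Ccnd1 (cyclin D1), the most abundant D cyclin, was at 99.4 FPKM with LIPUS and 110.0 in Control (-0.14). Ccnd3 (cyclin D3) lay the other way, at 41.3 and 36.6 FPKM (0.17). Ccnd2 made up 11.1% of the summed FPKM of the D cyclins with LIPUS and 14.9% in Control, and Ccnd3 26.1% and 21.3%. Cdkn1b had a log2 ratio of -0.033. On chromosome 6 of GRCm38, Ccnd2 lies from 127125162 to 127152193 on the minus strand and Cdkn1b from 134920401 to 134925513 on the plus strand.

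**Figure D3:**
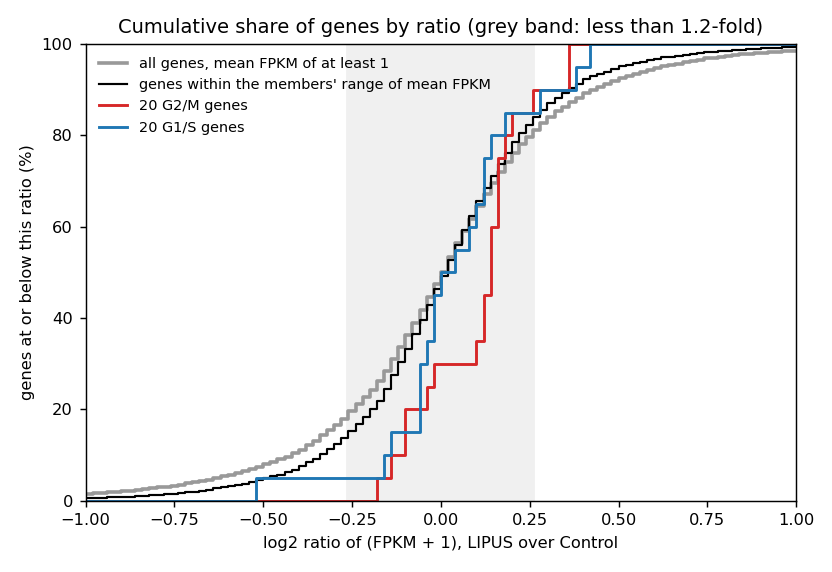
Cumulative share of genes by log2 ratio of (FPKM + 1), LIPUS over Control, for the 20 G2/M genes (red), the 20 G1/S genes (blue), the 7120 genes within the same range of mean FPKM (black) and all 11536 genes (grey). Both groups of cell cycle genes rise more steeply than the other curves, and the G2/M curve crosses 50% at 0.13.

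The median absolute log2 ratio was 0.12 over the 40 genes, 0.14 over the G2/M genes and 0.091 over the G1/S genes. It was 0.16 over the 7120 genes of the same range of levels and 0.19 over all 11536 genes. Across the 40 genes, the absolute log2 ratio and the log2 mean FPKM had a Pearson's r of -0.24 and a Spearman's rho of -0.31. The part of the level in the difference from all genes was not tested.

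A further 182 cell cycle genes in 11 lists were examined, of which 180 passed the minimum. With LIPUS, 31 were at least 1.2-fold higher and 25 at least 1.2-fold lower, together 31.1%, against 18.5% higher, 19.4% lower and 37.9% either way among all 11536 genes, and their median log2 ratio was 0.034. The counts of the single lists are small, and differences among the lists were not tested. Of the 15 transcription factors of the cell cycle, 7 were at least 1.2-fold higher and 1 lower, from E2f2 (2.06 FPKM with LIPUS and 0.585 in Control, log2 ratio 0.95) to E2f5 (7.76 and 11.4 FPKM, -0.50), with a median of 0.12. Of the 20 motors and cytokinesis genes, 17 were above 0, with 4 at least 1.2-fold higher, 2 lower and a median of 0.21, which was 0.14 with a pseudocount of 5. They reached from Kif20b (9.42 and 14.4 FPKM, -0.57) to Kif15 (24.2 and 17.9 FPKM, 0.41). Of the 22 genes of the spindle checkpoint and kinetochore, 4 were higher and 3 lower, from Knl1 (-0.48) to Cenpu (0.46).

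The counts below stand beside shares of 18.5% higher and 19.4% lower among all 11536 genes. Among the lists of S phase, origin licensing had 0 of 12 genes at least 1.2-fold higher and 3 lower, from Orc5 (4.70 FPKM with LIPUS and 8.46 in Control, log2 ratio -0.73) to Mcm10 (0.19). The 29 genes of the replication fork had 4 higher and 3 lower, from Chtf18 (-0.53) to Fen1 (0.36), which was at 2.37 and 1.62 FPKM. Of 10 genes of nucleotide supply, 1 was higher, Shmt1 (0.35), and the lowest was Dut (-0.16). The kinases and their activators had 0 of 14 higher and 3 lower, from Cdc25c (-0.33) to Cdk7 (0.19). Of the 8 Cdk inhibitors and pocket proteins, 1 was higher, Rbl1 (0.28), and 3 lower, the lowest being Cdkn2b (-0.56), while Cdkn1a, which encodes p21, was at 188 and 171 FPKM (0.14).

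Against the same shares of all genes, 18.5% higher and 19.4% lower, condensin and cohesin genes had 3 of 17 higher and 1 lower. They reached from Stag1 (17.2 FPKM with LIPUS and 27.7 in Control, log2 ratio -0.66) to Esco2 (0.72). The anaphase-promoting complex had 2 of 15 in each direction, from Anapc4 (-0.54) to Anapc11 (0.46). Replication checkpoint and repair genes had 5 of 18 higher and 4 lower, from Atm (3.33 and 7.33 FPKM, -0.95) to Brca1 (16.2 and 8.84 FPKM, 0.81). Their median was -0.15. It was -0.035 over the genes with a mean FPKM of at least 10, -0.097 with a pseudocount of 5 and -0.21 with the rescaled FPKM. The median of the mean FPKM was 20.8 over these further genes and 52.5 over the 40 genes, and the median absolute log2 ratio was 0.18 and 0.12.

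**Figure D4:**
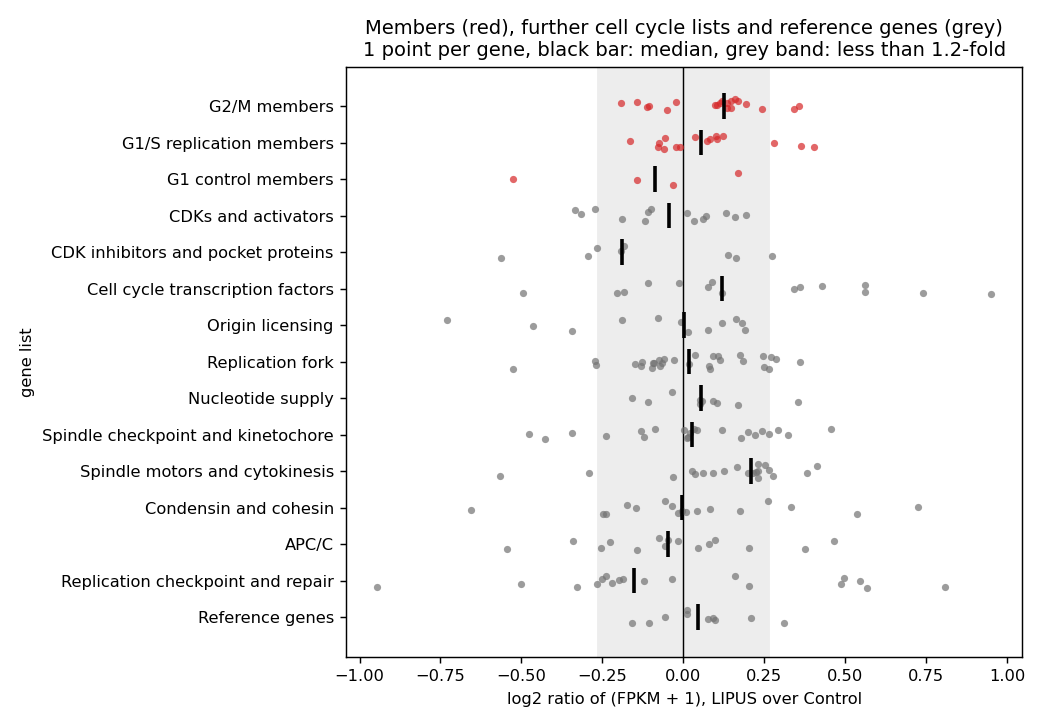
Log2 ratio of (FPKM + 1), LIPUS over Control, of each gene in the 3 groups of members (red), the 11 further cell cycle lists and the reference genes (grey), with the median of each list as a black bar and a grey band for ratios under 1.2-fold. The members lie mostly inside the band, and points beyond -0.9 or 0.9 belong to Atm and E2f2.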

How the data were processed

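RNA-seq was performed by the authors on 3 LIPUS-treated and 3 Control cultures of MLO-Y4 cells, with stranded mRNA libraries read as paired 100-base reads. Per the labels, reads were trimmed with Trimmomatic 0.36 and aligned to GRCm38 with TopHat2 2.1.0 and Bowtie2 2.2.6.0. The authors deposited 1 table in the layout of Cuffdiff, with FPKM pooled per group. The Cufflinks version is 2.2.1 in the methods and 2.1.1 in the submitters' processing notes. The columns of the authors' own comparison (fold change, test statistic, p-value, q-value, test status) were not used.

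Log2 ratios of (FPKM + 1) were computed for genes with a mean FPKM of at least 1, so the ratios of low genes are understated. Genes were named as at least 1.2-fold higher or lower as a fixed limit of size and not as a test. The members and lists were chosen with earlier results of these data known. All members are named, with the highest and lowest gene of each further list and the marker and reference genes named to check the line and the scale; Cdkn1a was added after its value was seen, as were the genes with shared exons. Gene positions and exons were taken from GENCODE M21 (GRCm38), which held 99.7% of the gene identifiers. The computation ran in Python 3.11.15 (pandas 2.3.3, numpy 2.4.6), with correlations from scipy 1.17.1 and plots from matplotlib 3.10.9, and was tested on simulated data. The value of 1 marker gene is not reported here.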

Additional observations from a re-analysis of the deposited data

How the results depend on the processing

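Both medians were recomputed with pseudocounts of 0.1 and 5, without a minimum FPKM, with a mean FPKM of at least 10, after rescaling the FPKM of each group to the same total, and after centring on the median of all genes. A last setting, chosen after seeing the data, left out the 5 genes that share over 10% of their exonic bases with another gene past the minimum. The G2/M median stayed above 0 and within 0.05 of its value in each of these, the lowest being 0.083 with the rescaled FPKM. With the rescaling, the median of all genes moved to -0.045, over 12265 genes in place of 11536, and the G1/S median, which lay near 0, was then -0.033. The G1/S median was 0.035 with a mean FPKM of at least 10 and also without the genes with shared exonic bases. Under the other settings it lay from 0.012 to 0.014. The count of genes past the fold depended on the fold. At 1.1-fold, 12 genes were higher and 5 lower (30.8% and 31.3% of all genes), and at 1.5-fold 0 were higher and 0 lower (5.63% and 5.95% of all genes). Under the other settings 4 or 5 genes were higher and 1, Ccnd2, was lower. E2f1 was lost from the higher genes with the pseudocount of 5 and with the rescaled FPKM, while Aurka, Kif23 and Tyms were kept in all settings with the 1.2-fold limit. Gins2 was left out by the last setting only. Of the medians of the further lists, 66 of 77 recomputed values kept their sign and stayed within 0.05. No paired analysis was possible because the table holds no value of a single replicate, and for the same reason no replicate was left out. The methods give a common read number per sample, but the pooled FPKM carry neither the depth nor the spread of single libraries. The smallest difference that these libraries can show is therefore not known.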

Other observations

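Since FPKM are per length, levels of partner genes are set side by side here as a rough description of RNA and not of protein. Shared exonic bases and other differences between genes were not corrected for. Rrm2 exceeded Rrm1 by 3.83 times with LIPUS and 3.98 times in Control. Between the most and the least abundant MCM subunit, which form a ring with 1 copy of each, the FPKM differed by 2.15 times with LIPUS and 1.94 times in Control. Cdk1 exceeded the sum of Ccnb1 and Ccnb2 by 3.70 times with LIPUS and 3.30 times in Control. Bub1b exceeded Bub1 by 2.44 and 1.78 times, and Aurka exceeded Aurkb by 1.40 and 1.22 times. Cdc6 was at 0.504 of the FPKM of Cdt1 with LIPUS and at 0.435 in Control. The summed FPKM of the G2/M genes was 0.834 of that of the G1/S genes with LIPUS and 0.784 in Control. None of these differences between the groups was tested.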
